A study of Mus musculus with 4 samples.

Results

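Antimicrobial proteins made in the skin were followed here at the level of their mRNA, in whole back skin of mice with and without the clock transcription factor BMAL1. The set was 10 listed genes: the peptidoglycan recognition proteins Pglyrp1, Pglyrp2, Pglyrp3 and Pglyrp4, the cathelicidin gene Camp, the iron-withholding proteins Lcn2 and Ltf, the beta-defensins Defb1 and Defb6, and the protease inhibitor Slpi. Of these, 9 had a probe set paired with 1 gene symbol, among 19938 genes so paired, and each had 1 probe set. Pglyrp2 had none and was not analysed here. The set was drawn up around the higher Pglyrp4 value in the knockout arrays of this series, so Pglyrp4 was chosen by its difference between knockout and heterozygous arrays. The other members were listed beside it as antimicrobial products, with earlier results of these data known. The values of the members in that contrast are therefore given as a description, without a test of their own.

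Skin was collected from C57Bl6 mice at postnatal day 22, when hair follicles rest (telogen). Collection was at ZT22, which counts hours after lights on and falls late in the dark phase. The 2 heterozygous mice carried 1 mutant allele of Bmal1, listed as Arntl on the array, and the 2 germline knockout mice had no working copy in any tissue, and no wild-type animal entered the comparison. Replicates were littermates, per the series' design text, and each gave 1 Affymetrix whole-transcript array. Values are log2 signals after quantile normalization of the 4 arrays, differences are knockout minus heterozygous, and SEs are limma's moderated ones with n = 2 per genotype. A level of 1 probe set cannot be set against that of another, since probes differ in how brightly they bind.

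Arntl itself read 8.90 and 9.08 in heterozygotes against 8.29 and 8.16 in knockouts. The genotypes did not overlap, and the knockout signal averaged 58.8% of the heterozygous. Where its probes lie relative to the deletion is not known here, so what signal is left says nothing of intact transcript. Keratinocyte markers of resting skin were bright on every array, with Krt10 between 13.29 and 13.46 and Krt5 between 12.36 and 12.98. Correlations between arrays over the tested probe sets ran from 0.966, between heterozygous array 2 and knockout array 1, to 0.988, between the knockout arrays. As this is bulk tissue, fewer cells of a type and less RNA per cell cannot be told apart in any value below.

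Peptidoglycan is the polymer of the bacterial cell wall, and mammalian peptidoglycan recognition proteins bind it through a shared domain. PGLYRP1 is stored in neutrophil granules, PGLYRP2 is an amidase that cuts peptidoglycan, and PGLYRP3 and PGLYRP4 are bactericidal proteins of skin and mucosal surfaces. The other products act by different routes: cathelicidin and defensin peptides disrupt membranes, lipocalin 2 (Lcn2) captures the siderophores with which bacteria collect iron, lactoferrin (Ltf) binds iron itself, and SLPI inhibits neutrophil proteases and kills microbes. The rise of Pglyrp4 raised the question of whether other antimicrobial products were higher in the same skin.

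The promoter windows of 6 members in the RefSeq table (GRCm38.p6) run from 250 bases before to 50 after the annotated start of the gene. The window listed for Pglyrp2 lies inside that gene and was left out, and entries were missing for Pglyrp3, Pglyrp4 and Defb1. Windows were searched on both strands for CACGTG, the E-box that BMAL1 and CLOCK bind; for CACGTT, a variant of it; for AGGTCA, the half-site of REV-ERB and ROR receptors; for TTACGTAA and TTATGTAA, D-box forms; for TGANTCA, the AP-1 site; for TTGCNNAA, a C/EBP form; and for an NF-kB form. These were searched as plain letters, so a match is a description and not a binding site, and no matches overlapped in the windows shown. CACGTG was in 1 of the 6 member windows, that of Slpi, and in 7.15% of all 32851 windows of the table, some of which share a gene. TTGCNNAA was in 4 of the 6, those of Lcn2, Slpi, Defb6 and Ltf, and in 10.8% of all windows. AGGTCA was in 1, that of Ltf (16.3% of all), the NF-kB form in 1, that of Pglyrp1 (0.411% of all), and CACGTT, both D-box forms and TGANTCA in none of these 6 windows (4.68%, 0.119%, 0.938% and 7.81% of all).

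The windows below are shown because Slpi holds the E-box, Pglyrp1 is the peptidoglycan recognition gene with both a sequence and array values, and Lcn2 and Defb6 hold the C/EBP form. Capitals mark the matches: in Slpi TTGAGCAA and then CACGTG, in Pglyrp1 GGAAAGTCCC (the NF-kB form on the opposite strand), in Lcn2 TTGCTCAA, and in Defb6 TTGCTAAA and TTGCATAA. Positions are chr2:164356458-164356757 (minus strand) for Slpi, chr7:18884440-18884739 (plus strand) for Pglyrp1, chr2:32387690-32387989 (minus strand) for Lcn2 and chr8:19225228-19225527 (plus strand) for Defb6. The CACGTG of Slpi begins at base -146 from the start of the gene.
Slpi: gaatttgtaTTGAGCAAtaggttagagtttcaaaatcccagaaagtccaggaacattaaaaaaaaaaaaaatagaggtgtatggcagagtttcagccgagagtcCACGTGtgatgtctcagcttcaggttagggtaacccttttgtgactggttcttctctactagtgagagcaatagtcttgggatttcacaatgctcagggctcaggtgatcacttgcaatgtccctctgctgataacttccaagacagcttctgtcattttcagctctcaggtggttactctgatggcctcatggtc
Pglyrp1: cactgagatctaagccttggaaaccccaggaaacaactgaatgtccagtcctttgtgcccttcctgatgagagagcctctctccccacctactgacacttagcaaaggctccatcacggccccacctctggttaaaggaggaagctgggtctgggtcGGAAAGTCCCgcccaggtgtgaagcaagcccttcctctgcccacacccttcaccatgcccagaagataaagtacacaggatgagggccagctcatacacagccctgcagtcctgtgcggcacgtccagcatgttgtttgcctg
Lcn2: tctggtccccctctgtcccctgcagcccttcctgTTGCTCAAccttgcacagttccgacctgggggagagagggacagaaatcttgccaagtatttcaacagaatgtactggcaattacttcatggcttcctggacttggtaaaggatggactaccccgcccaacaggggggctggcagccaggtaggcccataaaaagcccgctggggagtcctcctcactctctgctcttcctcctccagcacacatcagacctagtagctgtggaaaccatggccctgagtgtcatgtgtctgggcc
Defb6: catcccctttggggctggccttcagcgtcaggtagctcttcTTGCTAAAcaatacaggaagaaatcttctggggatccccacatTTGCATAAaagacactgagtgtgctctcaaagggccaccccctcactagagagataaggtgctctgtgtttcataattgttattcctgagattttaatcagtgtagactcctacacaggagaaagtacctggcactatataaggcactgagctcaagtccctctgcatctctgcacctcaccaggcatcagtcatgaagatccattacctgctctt

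Pglyrp4 was the member with a large difference, and it was higher in the knockout. Its probe set read 8.49 and 8.57 in heterozygotes against 9.92 and 9.83 in knockouts. Both knockout values lay above both heterozygous values, and the gap between the nearest arrays of the genotypes, 1.26, was far wider than the gaps within them, 0.08 and 0.10. The difference was 1.35 (SE 0.11), a 2.54-fold higher signal. Of 16341 tested probe sets, 13 had a larger difference, and 0.373% had a difference above 1. With 1 array left out the difference ran from 1.30 to 1.39. In the values as deposited, before quantile normalization, Pglyrp4 read 8.43 and 8.53 against 9.98 and 9.87. Pglyrp4 is a protein-coding gene on chromosome 3 at 90726906 to 90741517 (GRCm38.p6).

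The other peptidoglycan recognition genes measured did not share that size. Pglyrp3, which like Pglyrp4 encodes a bactericidal protein of surface epithelia and lies at chr3:92012477-92032672, read 8.31 and 8.45 in heterozygotes against 8.52 and 8.50 in knockouts. Its knockout values lay above the heterozygous ones, but by only 0.047 from the nearest, which is less than the 0.15 between the heterozygous arrays. The difference was 0.13 (SE 0.11), with a 95% interval of limma's moderated estimate from -0.12 to 0.38. It was 0.22 as deposited, 0.26 with median centring, and 0.056 to 0.20 with 1 array left out. Pglyrp1, at chr7:18884690-18890438, read 7.44 and 7.03 in heterozygotes against 7.13 and 7.08 in knockouts. The knockout values fell inside the heterozygous range, and the difference of -0.13 (SE 0.16, interval -0.49 to 0.22) turned to 0.068 without heterozygous array 1. Pglyrp4 minus Pglyrp3 was 0.18 and 0.11 in heterozygotes against 1.40 and 1.32 in knockouts, so that on the same arrays the probe sets of these related genes moved apart by more than 1.

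**Figure D1:**
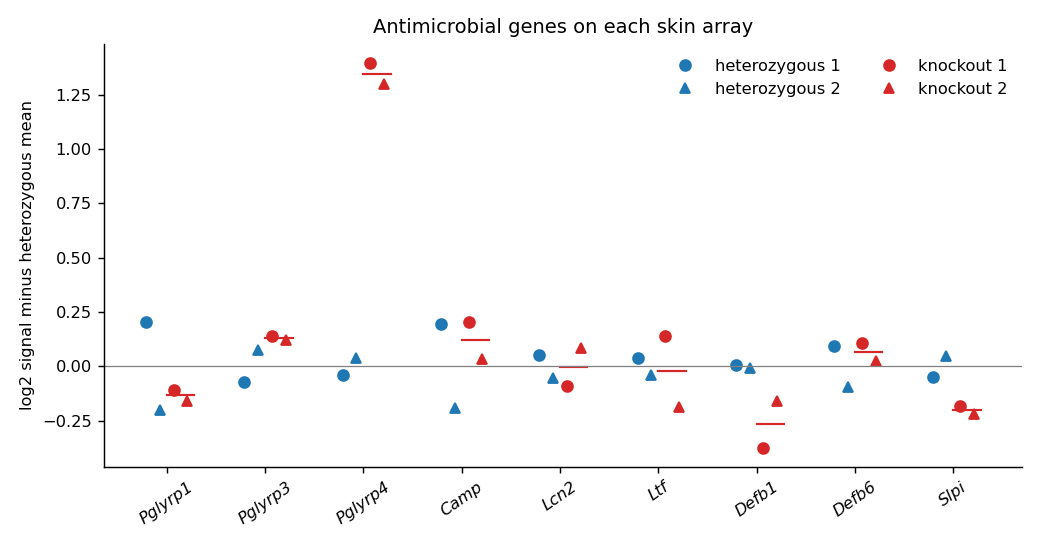
Log2 signal of each member minus its mean over the heterozygous arrays (vertical axis) for the 9 genes with a probe set; blue symbols are the 2 heterozygous arrays, red symbols the 2 knockout arrays, and the red bar is the knockout mean. Pglyrp4 stands at about 1.35 and no other member's knockout mean lies above 0.13.

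The cathelicidin gene and the genes of the iron-withholding proteins showed no separation by genotype. Lcn2, at chr2:32384637-32387739, read 8.74 and 8.64 in heterozygotes against 8.60 and 8.77 in knockouts, with the knockout values on either side of the heterozygous pair. Its difference was -0.0022 (SE 0.12, interval -0.26 to 0.26), and it was 0.10 before quantile normalization and 0.14 when each array was centred on its median. Camp, which encodes the precursor of the cathelicidin peptide and lies at chr9:109847377-109849456, read 6.91 and 6.52 against 6.92 and 6.75. These groups overlapped, and the difference of 0.12 (SE 0.18, interval -0.27 to 0.51) was -0.017 as deposited and -0.074 without heterozygous array 2. Ltf, at chr9:111019292-111042766, read 6.05 and 5.97 against 6.15 and 5.83, which is below the signal filter of 6.67 on every array, so it was not tested. Its groups overlapped, and its difference was -0.02, or -0.19 as deposited. Dim probe sets as a whole read lower in the knockout arrays: among the 5447 with the lowest mean signal, which include Ltf, the median difference was -0.09 and 32.5% were higher, against 0.02 and 54.5% among the 5448 brightest. The part of this in the Ltf value was not tested.

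The defensins and Slpi gave small differences, in both directions. Defb6, known in mice from skeletal muscle among other tissues and located at chr8:19225478-19228209, was bright on all arrays, at 12.53 and 12.34 in heterozygotes against 12.54 and 12.46 in knockouts. The genotypes overlapped, with a difference of 0.06 (SE 0.12, interval -0.21 to 0.33), or -0.031 without heterozygous array 2. Defb1, the defensin that epithelia make without a stimulus, at chr8:21776555-21795185, read 9.99 and 9.97 in heterozygotes against 9.61 and 9.82 in knockouts. Both knockout values were lower, but the gap to the nearer of them, 0.15, was less than the 0.21 between the knockout arrays. Its difference was -0.27 (SE 0.12, interval -0.53 to -0.0025), which is 83.1% of the heterozygous signal, and it was -0.15 as deposited, -0.11 when centred on the median, and -0.16 and -0.37 when knockout array 1 or 2 was left out. Slpi, at chr2:164354070-164356507, read 7.59 and 7.69 against 7.46 and 7.42, lower in both knockout arrays, with a difference of -0.20 (SE 0.12, interval -0.47 to 0.07).

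Side by side, the rise of Pglyrp4 had no counterpart of its size among the 8 other members measured. The differences of the 7 others that were tested ran from -0.27 to 0.13, 3 higher and 4 lower, and the highest upper bound of their intervals was 0.51, for Camp. The median difference of the 8 tested members was 0.03, and it was -0.0022 without Pglyrp4, against 0.02 over all tested probe sets. Of the 8, 4 were higher, where 54.1% of all tested probe sets were. Both knockout values lay above both heterozygous ones for 2 members, Pglyrp3 and Pglyrp4, and below for 2, Defb1 and Slpi, where the shares over all tested probe sets were 27.8% above and 22.1% below. In limma's test over all 16341 probe sets with Benjamini-Hochberg adjustment, 1 of the 8 passed a threshold of 0.05, Pglyrp4, beside 1.98% of all tested probe sets (1.47% higher and 0.502% lower). Nothing is read from that count, since the Pglyrp4 difference in this contrast chose the set. The 323 calls over all probe sets were 241 higher and 82 lower, or 780 and 133 when arrays were centred on their medians. They depend on which probe sets enter the fit: when those annotated to several genes were tested too, 17557 in all, limma called 0, with 2713 at an unadjusted p under 0.05. The same holds for each call named below.

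**Figure D2:**
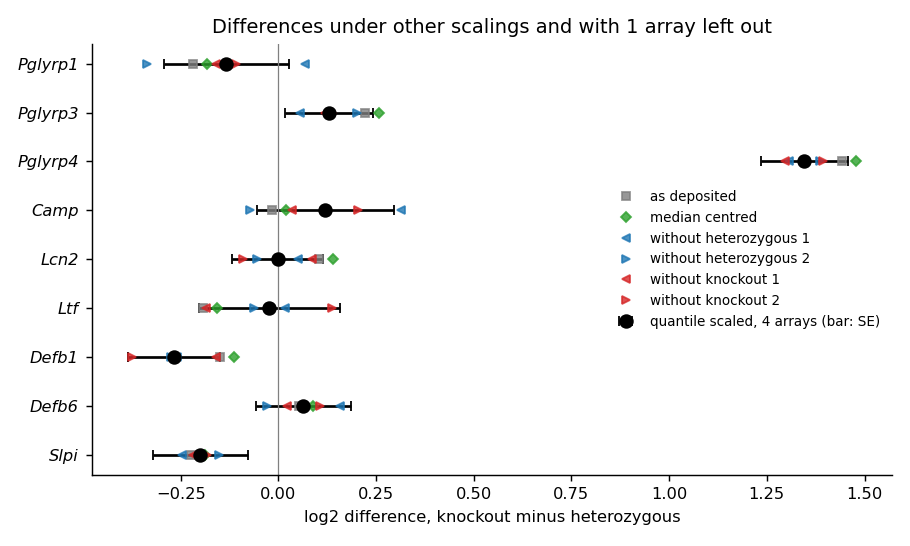
Log2 difference, knockout minus heterozygous (horizontal axis), for each member with a probe set; black points are the quantile-normalized values with limma's SE as the bar, other symbols the values as deposited, after median centring, and with 1 array left out. Pglyrp4 stays between 1.30 and 1.48 in all of these, and Pglyrp1, Camp, Lcn2, Ltf and Defb6 have symbols on both sides of 0.

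Pglyrp4 and Pglyrp3 lie on chromosome 3 with S100 genes on one side and genes of the cornified envelope on the other. Before Pglyrp4 in gene order, S100a9 and S100a8, which encode the subunits of the antimicrobial protein calprotectin, differed by -0.05 (SE 0.19) and 0.36 (S100a8 below the signal filter). S100a7a, a keratinocyte S100 protein, read 8.13 and 7.97 in heterozygotes against 7.91 and 7.95 in knockouts, a difference of -0.12. Further out, S100a6 differed by 0.09 and S100a5, below the filter, by 0.38, and S100a4 fell by 0.62 on the log2 scale (SE 0.13, limma adjusted p = 0.0435), from 9.96 and 9.70 to 9.30 and 9.13. That call ended in the values as deposited (adjusted p = 0.074), on median centring (0.091), without a filter (0.072), without a trend (0.065), and without heterozygous array 1 (0.074), knockout array 1 (0.102) or knockout array 2 (0.151). Beside Pglyrp3, the loricrin gene Lor differed by 0.16, Prr9 by 0.415 (SE 0.22) and Lelp1, below the filter, by -0.35. Prr9 read 6.47 and 6.97 in heterozygotes against 7.40 and 6.88 in knockouts, so its groups overlapped. None of the measured neighbours had a difference near that of Pglyrp4. None of the genes placed between Pglyrp4 and Pglyrp3 in the reference gene order had a probe set paired with 1 symbol.

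**Figure D3:**
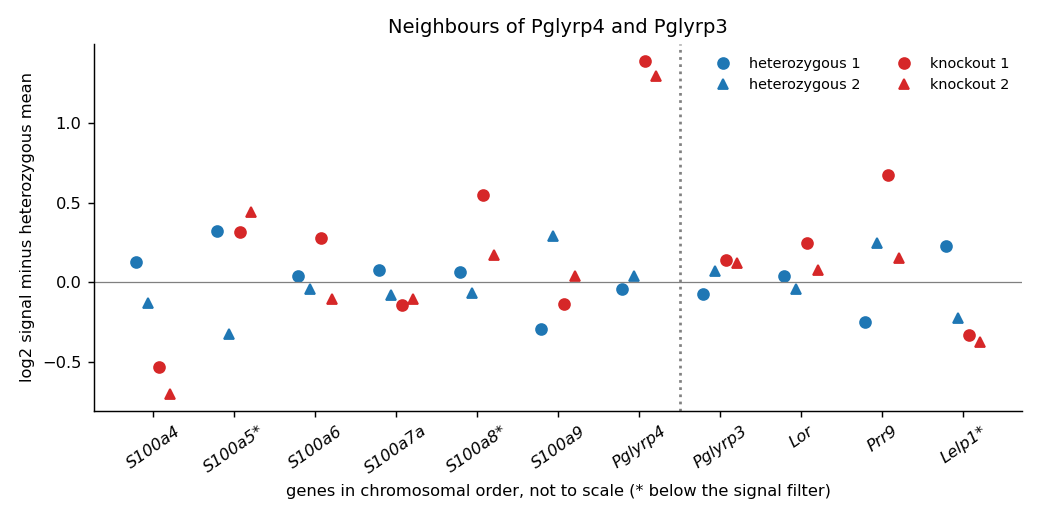
Log2 signal minus the heterozygous mean (vertical axis) on each array for the measured genes next to Pglyrp4 (left of the dotted line) and next to Pglyrp3 (right of it), in chromosomal order; blue symbols are heterozygous and red symbols knockout arrays. Among these genes Pglyrp4 has the highest knockout values, and S100a4 the lowest.

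Around the other members, the genes next in order were mostly below the filter. Beside Defb6, Defb46 read 7.78 and 7.79 in heterozygotes against 6.92 and 7.39 in knockouts, a difference of -0.63 (SE 0.16, limma adjusted p = 0.083). Defb14, Defb4, Defb5 and Defb3 were below the filter, as were Defa24, Defb50 and Defb10 beside Defb1. Beside Slpi, the seminal vesicle genes Svs4, Svs3a, Svs6 and Svs5 were below the filter, and Matn4, Rbpjl and Sdc4 differed by -0.15, -0.005 and 0.06.

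Among products outside the list that also act on microbes, no gene passed the threshold in limma. Of 25 such probe sets found, 10 were tested and the other 15 were below the filter. Of the 10, 2 were higher, where 54.1% of all tested probe sets were, and 8 were lower, or 4 and 6 with median centring. Their median was -0.12, but -0.086 as deposited, -0.050 with median centring, and -0.19 to -0.079 with 1 array left out. The lower ones with the largest differences were Retnla, a small secreted protein (-0.43, SE 0.12), and Wfdc5, of the same protein family as Slpi (-0.32, SE 0.12). The higher ones were Hamp, the iron hormone hepcidin (0.59, SE 0.21, or 0.24 without heterozygous array 2), and Adm, adrenomedullin (0.21, SE 0.13). At an unadjusted p under 0.05 there were 3 of 10, where 17.9% of all tested probe sets were. The lysozymes Lyz1 and Lyz2, near-identical genes whose probes may not tell them apart, differed by -0.19 and -0.16, and Defb14 was below the filter.

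Genes of peptidoglycan sensing, a list of sensors, adaptors, other signalling proteins and transporters, differed in both directions. Of 17 tested genes 7 were higher, where 54.1% of all tested probe sets were, and 10 were lower. Their median was -0.09, and it became 0.0069 as deposited and 0.043 with median centring. None passed the threshold in limma, where 1.98% of all tested probe sets did, and 2 of 17 had an unadjusted p under 0.05, where 17.9% of all did. Nod1 and Nod2, which bind fragments of peptidoglycan in the cytosol, differed by -0.09 (0.014 as deposited) and 0.15, and Tlr2, the receptor for bacterial lipoproteins, by -0.10. The largest differences were those of Card9, an adaptor of innate signalling (0.52, SE 0.14, limma adjusted p = 0.093), and Slc46a2, a transporter that in mice carries peptidoglycan fragments into cells (0.47, SE 0.11, limma adjusted p = 0.066). Slc46a2 read 9.34 and 9.25 in heterozygotes against 9.80 and 9.72 in knockouts, and Card9 6.93 and 6.77 against 7.41 and 7.33. In both genes the knockout values lay above the heterozygous ones without overlap. That held for 4 of the 17 tested genes, where 27.8% of all tested probe sets did so. For 5 of the 17 both knockout values lay below, where 22.1% of all did. Casp1 and Slc15a2 differed by -0.27 (SE 0.17) and -0.26 (SE 0.26), and in both the genotypes overlapped. Casp1 was -0.013 without heterozygous array 1, and Slc15a2 turned to 0.26 without heterozygous array 2.

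Among the cytokines that induce antimicrobial products, and their targets, 1 of 16 tested probe sets passed, where 1.98% of all did. This was Il1a, the interleukin 1 alpha that keratinocytes store, which rose by 0.77 (SE 0.13, limma adjusted p = 0.023), from 7.47 and 7.18 in heterozygotes to 8.07 and 8.12 in knockouts. The call ended without a signal filter (adjusted p = 0.055), without knockout array 1 (0.116) and without knockout array 2 (0.080). Il1b went the other way without passing (-0.37, SE 0.18), Il17a differed by -0.12, and Il22ra1, a subunit of the receptor for interleukin 22, by -0.47 and -0.21 at its 2 probe sets. Steap4, a metalloreductase, differed by 0.34 (SE 0.12). The median of the 16 was -0.05, or 0.02 with median centring. Of the 16, 6 were higher, where 54.1% of all tested probe sets were, and 10 were lower.

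A list of proteases that SLPI inhibits or that act on cathelicidin, which also holds Spink5, an inhibitor of kallikreins, had 1 gene with a difference like that of Pglyrp4. Klk6, a kallikrein protease of the epidermis, rose by 1.35 (SE 0.14, limma adjusted p = 0.0054), from 9.37 and 9.0 to 10.57 and 10.50. It was 1 of 7 tested genes to pass, where 1.98% of all tested probe sets did. Klk5 and Klk7, which in humans process cathelicidin, differed by -0.27 (SE 0.12) and 0.09, and Klk14 by -0.15. Spink5 differed by 0.09 (SE 0.11). The neutrophil proteases Elane and Ctsg were below the filter and Prtn3 was just above it (0.09, or -0.046 as deposited). The median of the 7 was 0.09, and it was -0.052 without knockout array 1. Of the receptors of the members, 3 of 6 were tested and all 3 were lower, where 54.1% of all tested probe sets were higher. Slc22a17, which binds lipocalin 2, differed by -0.11, Lrp1, which takes up lactoferrin, by -0.31 (SE 0.12) and Tnfrsf1a by -0.11. On median centring Slc22a17 and Tnfrsf1a turned to 0.034 and 0.039, and without heterozygous array 1 they were -0.0018 and 0.0029. None of the 3 passed in limma, and 1 had an unadjusted p under 0.05, where 17.9% of all tested probe sets did. Trem1, for which PGLYRP1 is a ligand, was below the filter.

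Most neutrophil markers were below the signal filter, and those above it did not move one way. Of 15 probe sets 10 were below the filter, among them Elane, Ly6g and S100a8. Mpo read 7.16 and 7.03 in heterozygotes against 6.94 and 6.91 in knockouts. The mean of the 5 tested neutrophil markers was 7.09 and 7.18 in heterozygotes against 7.28 and 7.10 in knockouts. Their median difference was -0.05. Of the 5, 0 passed the threshold in limma. At an unadjusted p under 0.05 there was 1, where 17.9% of all tested probe sets were. Mmp9, which neutrophils share with other cells, differed by 0.46 (SE 0.16).

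Markers of skeletal muscle, sebocytes and activated keratinocytes were higher in the same arrays as Pglyrp4. All 12 tested muscle markers were higher, where 54.1% of all tested probe sets were. Their mean read 11.63 and 11.76 in heterozygotes against 12.48 and 12.17 in knockouts. The median difference was 0.52, and it ran from 0.38 to 0.63 with 1 array left out. All 12 had an unadjusted p under 0.05, where 17.9% of all tested probe sets did. In limma 3 rose past the threshold, where 1.47% of all tested probe sets were higher and passed. These were Myh1, a fast-fibre myosin (1.32, SE 0.21), Mylpf, a myosin light chain (0.84, SE 0.14), and Casq1, which stores calcium (0.82, SE 0.12). Without knockout array 1 Mylpf and Casq1 no longer passed (adjusted p = 0.112 and 0.102). All 10 sebocyte markers were higher, with means of 10.62 and 10.22 in heterozygotes against 11.06 and 11.01 in knockouts. Their median was 0.62, and it was 0.88 or 0.43 when heterozygous array 1 or 2 was left out. At an unadjusted p under 0.05 there were 9 of 10. In limma 2 passed the threshold, Awat1 (1.12, SE 0.16) and Elovl3 (0.82, SE 0.12), both enzymes of sebum lipids. Elovl3 did not pass without knockout array 1 (adjusted p = 0.060). Defb6, with muscle among its known sites, differed by 0.06 in those arrays.

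Of the 7 tested markers of activated keratinocytes 6 were higher, where 54.1% of all tested probe sets were, and 1 was lower. Their means were 8.92 and 8.67 in heterozygotes against 9.26 and 8.95 in knockouts. At an unadjusted p under 0.05 there were 3 of 7, where 17.9% of all tested probe sets were. Krt6a, a keratin of wounded and inflamed epidermis, rose by 0.84 (SE 0.12, limma adjusted p = 0.012), from 8.46 and 8.37 to 9.37 and 9.15, and did not pass without knockout array 1 (adjusted p = 0.074). Its sequence is close to that of Krt6b (0.41, SE 0.16), and probes may not tell them apart. Krt16, its partner, differed by 0.58 (SE 0.16, adjusted p = 0.103). The lower one was Sprr2d, a cornified envelope protein, at 6.90 and 7.07 against 6.46 and 6.79 (-0.36, SE 0.17). The median was 0.35, but 0.55 and 0.11 when heterozygous array 1 or 2 was left out and 0.22 and 0.57 when knockout array 1 or 2 was. Markers of differentiated and basal keratinocytes had medians of 0.02 and -0.06 (the latter 0.048 as deposited), with none past the threshold in limma and 0 of 9 and 1 of 7 at an unadjusted p under 0.05. Medians were -0.16 for macrophages, -0.13 for mast cells, -0.12 for T cells and 0.08 for adipocytes, also with none past the threshold. At an unadjusted p under 0.05 were 1 of 8, 1 of 5, 0 of 4 and 2 of 5. These were the macrophage marker Cd68 (-0.65, SE 0.16) and the mast cell marker Tpsb2 (0.35, SE 0.13). The adipocyte markers went opposite ways, Lep by -0.60 (SE 0.22, genotypes overlapping) and Retn by 0.47 (SE 0.20). The share at that p over all tested probe sets was 17.9%. With 1 array left out the macrophage median ran from -0.26 to -0.064, the mast cell median from -0.16 to -0.02 and the T cell median from -0.15 to -0.05, and with median centring they were -0.046, -0.041 and -0.0415. Sign turned with 1 array left out for the neutrophil (-0.10 to 0.047), adipocyte (-0.30 to 0.46), differentiated (-0.11 to 0.15) and basal (-0.25 to 0.15) keratinocyte medians. The part of any of these cell types in the Pglyrp4 value was not tested.

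**Figure D4:**
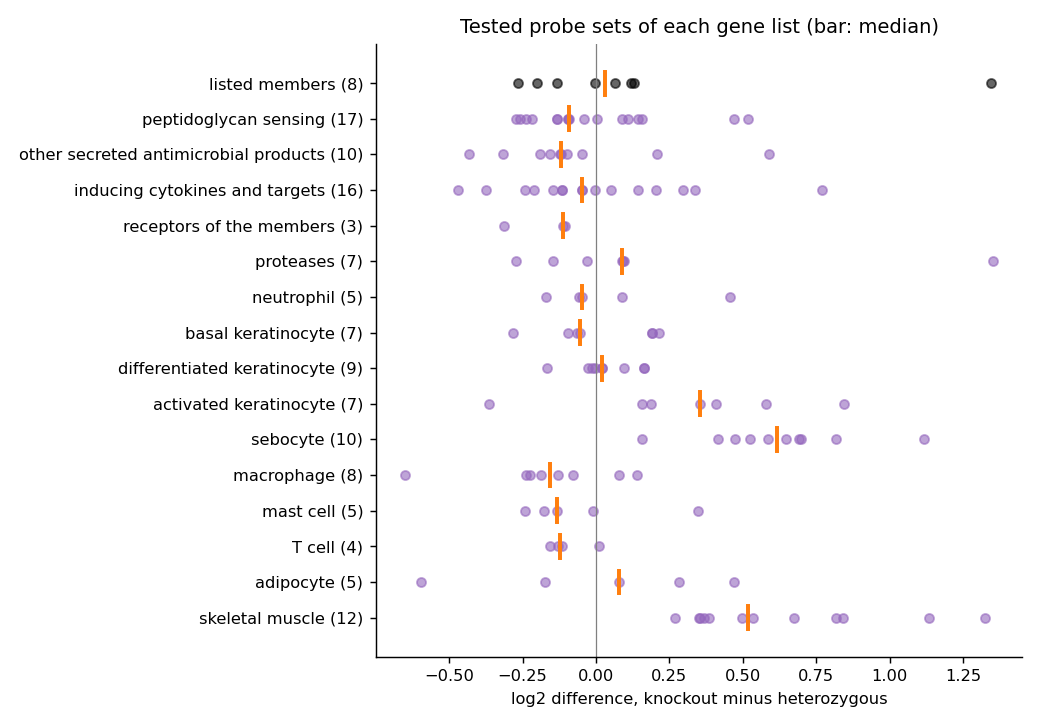
Log2 difference, knockout minus heterozygous (horizontal axis), for every tested probe set of the antimicrobial members, of 5 pathway lists and of 10 cell type marker lists; each point is 1 probe set, the orange bar is the list median, and the number of probe sets is in parentheses. The sebocyte (0.62) and skeletal muscle (0.52) medians lie farthest from 0, and Pglyrp4 and Klk6 stand apart from the rest of their lists at about 1.35.

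The genes whose values followed Pglyrp4 most closely over the 4 arrays were named by the distance between log2 values after each gene was centred on its own mean. The nearest was Ampd1, the AMP deaminase of muscle, which read 9.46 and 9.53 in heterozygotes against 10.96 and 10.71 in knockouts, at a distance of 0.11. It was followed by Pdlim3, a LIM protein of muscle (distance 0.20), Hoxa5, a homeobox factor (0.23), Frzb, a secreted Wnt antagonist (0.24), Lmod3, which acts on muscle actin (0.25), and Cavin4, a muscle protein of caveolae (0.27). All 6 had differences between 1.12 and 1.34. With 4 arrays, any probe set with a like difference between genotypes lies close to Pglyrp4 by this measure.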

How the data were processed

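Total RNA of whole back skin was hybridised to 1 Affymetrix whole-transcript array per mouse. The submitters' processing notes name PLIER 2.0 and Affymetrix Expression Console 1.1.1. The deposited values, 1 table of 35557 probe sets, were taken as log2 from their range (2.54 to 14.9); the sources used here do not give the scaling between arrays or the annotation build. Quartiles differed by up to 0.34 between arrays, so all 4 were quantile normalized here. In the annotation 21789 probe sets had 1 gene symbol, 1621 had several and 12147 had none. Of those with 1 symbol, 21698 were matched by gene identifier to a GRCm38.p6 table, and its symbol was used. Tested were the 16341 with 1 symbol and a mean above the 25th percentile (6.67), with limma 3.58.1 in R 4.3.3 (lmFit, eBayes with a trend), genotype as the only term and Benjamini-Hochberg adjustment. The fit had 2 residual and 7.73 prior degrees of freedom. Ltf is described from the same fit without the filter. Lists were described by counts and medians, with no set test. Precision is limited by the number of arrays. No pair of arrays shared more than 0.104% of its values, so none was taken for a repeat deposit.

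The members, lists and settings were chosen with earlier results of these data known. Named are all members, the 6 genes nearest to Pglyrp4, genes within 8 places of Pglyrp4 and 4 of the defensins and Slpi. In each list, named are examples from its first 3 genes and the 4 with the largest differences, and Spink5 was named outside that rule. The neighbours of Pglyrp3, Lyz1, Lyz2 and the Defb genes of the wider family were added after their values were seen. Alternatives were the values as deposited, median centring, an offset of 16, the filter dropped or raised to the 50th percentile, no trend, a robust prior, a replicate block, each array left out, 1 probe set per gene and, added after the data were seen, probe sets with several symbols. The fit was tested on simulated data. Protein features were not analysed here.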

Additional observations from a re-analysis of the deposited data

How the results depend on the processing

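Across the settings tried, Pglyrp4 was higher in the knockout in each, between 1.30 and 1.48, and the count of calls over all probe sets moved with the setting. In place of 323 calls, 241 higher and 82 lower, limma gave 544 with the values as deposited (459 higher, 85 lower), 913 after median centring (780 higher, 133 lower), 145 without a filter and 0 when probe sets with several symbols were also tested, where the smallest adjusted p was 0.069 and the prior degrees of freedom were 4.12 in place of 7.73. Fitted with a replicate block on the labels' numbers, it gave 1235. The mice were littermates, but whether the same number marks the same litter is not stated, and the correlation of same-numbered deviations was 0.17. With 1 array left out the count ran from 77, without knockout array 1, to 986, without heterozygous array 1, a genotype's lone array then taking its spread from the other genotype. The cause of these shifts was not tested. The median of the members was -0.0022 without a filter, which adds Ltf, and was -0.064 and 0.062 at its extremes with 1 array left out. Signs turned for Camp (-0.017 as deposited, and -0.074 to 0.31 with 1 array left out), Lcn2 (0.10 as deposited and 0.14 after median centring, and -0.091 to 0.0865), Defb6 (-0.031 to 0.16) and Pglyrp1 (-0.34 to 0.068). Without turning, Pglyrp3 and Defb1 moved as given above. The median of all tested probe sets was 0.02, or 0.06 as deposited and 0.10 after median centring. Low signal limits Ltf, below the filter, and Camp, just above it, most.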

Other observations

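The wider beta-defensin family, looked at after the values of Defb1 and Defb6 were seen, was mostly below the signal filter, 28 of its 39 probe sets paired with 1 symbol. Of the 11 tested, Defb6 was higher and 10 were lower in the knockout, with a median of -0.27, and for 9 both knockout values lay below both heterozygous ones. Over all tested probe sets 54.1% were higher, and 22.1% had both knockout values below. None of the 11 passed in limma. Defb30 differed by -0.59 (SE 0.13, adjusted p = 0.056) and read 7.74 and 7.64 in heterozygotes against 7.01 and 7.19 in knockouts. The 11 passed the signal filter, so none was among the 5447 dimmest probe sets, which had a median of -0.09. Apart from Defb1 and Defb6, the mean signals of the 11 ranked between the 25th and 50th percentiles. The 5446 probe sets in that range had a median of -0.0043, and 49.3% of them were higher. The part of low signal in the defensin values was not tested.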
